A study of Mus musculus with 8 samples.

Results

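A pair of ATAC-seq peak lists of the Sox9 set, named Prog-like and EpCAM-high by the authors, were compared across the mouse genome. Overlapping peaks of both lists were merged where they shared at least 1 bp. Each of the 106326 merged regions was then classed as held by the Prog-like list alone, by the EpCAM-high list alone or by both. Merging all 5 deposited lists of the study gave 138775 regions. ATAC-seq uses a transposase that cuts and tags open chromatin, so a peak marks DNA that was accessible in the cells sampled.

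The study used mouse liver and macroscopic liver lesions of a model of hepatocellular carcinoma with triple knockout of the Rb family, the cell cycle inhibitors Rb1, Rbl1 and Rbl2. Cells positive for YFP, the reporter of Cre recombination at floxed alleles, were sorted on the surface proteins Thy1 and EpCAM. The labels list 8 samples in 5 groups, and the EpCAM-high Sox9 group held 1 sample. No label uses the name Prog-like, so that list was tied to no group, and the promoter driving Cre, the strain, the age and the number of animals were not given in the sources used here. All labelled samples are YFP-positive cells of this model, and no YFP-negative control is among them. Whether Rb1, Rbl1 and Rbl2 were recombined in the cells of each list was not tested. The other groups are EpCAM-high CK19 (2 samples), Thy1-positive CK19 (2), Thy1-positive Sox9 (1) and EpCAM-negative (2), all untreated. What CK19 and Sox9 stand for in these names is not stated in the labels. With 1 list per condition no replicate error could be had, and the conditions were not tested against each other. Intervals given for shares are 95% intervals (exact, Clopper-Pearson) that allow for counting error alone. The read depth behind the lists is unknown. The Prog-like list held 67855 peaks and the EpCAM-high list 59454, so each comparison was repeated with both at 59454 peaks, taken by the authors' −log10 p (equal length). In sorted bulk cells, fewer cells of a type and less open chromatin per cell cannot be told apart.

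Cell identity is written largely in distal open elements, which are bound by the transcription factors of a lineage, whereas the promoters of widely used genes are open in most cells. In liver, bile duct and progenitor cells rely on SOX9, GRHL2 and ONECUT factors and carry keratins 7 and 19 and EpCAM. Kupffer cells, the resident macrophages of the liver, rely on PU.1 (gene Spi1), IRF8 and SPIC and carry F4/80 (gene Adgre1), CLEC4F and VSIG4.

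The markers of these cell types did not go with the name Prog-like. All 7 macrophage and Kupffer markers examined (Adgre1, Clec4f, Vsig4, Timd4, Cd5l, Csf1r and Marco) had a Prog-like peak within 1000 bp of a gene end, and none had an EpCAM-high peak there. Their loci, defined as the gene body with 10 kb on each side, held 58 Prog-like and 4 EpCAM-high peaks in all. Of the 6 bile duct markers (Krt19, Krt7, Epcam, Sox9 and Cftr among them), 6 had an EpCAM-high gene-end peak and 1, Epcam, a Prog-like one, with 41 EpCAM-high and 3 Prog-like locus peaks. Hepatocyte markers (Alb, Hnf4a, Cps1, Ttr and Apoa1) were at 4 of 5 EpCAM-high and 0 of 5 Prog-like gene ends. Markers of other cell types were mixed or sparse in both lists. The 5 T and NK cell markers had 1 Prog-like and 0 EpCAM-high gene ends and 4 and 3 locus peaks, with Cd3d at a Prog-like gene end, Lck at 3 and 2 locus peaks, and Cd3e and Ncr1 at 0 in both. The 4 B cell markers had 1 and 0 gene ends, that of Cd79a, and 7 and 5 locus peaks. The 4 neutrophil markers had 1 gene end each, S100a8 in the Prog-like and S100a9 in the EpCAM-high list, and Ly6g and Mpo had no locus peak in either. The 5 stellate and fibroblast markers had 1 and 2 gene ends and 9 and 8 locus peaks. Among these, Pdgfrb had 8 and 2 locus peaks, Col1a1 0 and 5 with an EpCAM-high gene end, Lrat a gene-end peak in both lists, and Des and Dcn no locus peak. Of the 5 endothelial markers, Kdr and Lyve1 had a Prog-like and Erg an EpCAM-high gene-end peak, and the 5 loci held 28 and 13 peaks. Stab2 held 16 and 2 of these, Kdr 5 and 0, Lyve1 4 and 6, Erg 2 and 3, and Tek 1 and 2. The name Prog-like is kept below as the authors' label, without the cell type it implies. The part of macrophage chromatin in the differences below was not tested.

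Promoter sequences of the genes that set the lists apart are shown with a motif that macrophage factors are known to bind. The RefSeq windows (GRCm38.p6, the same build as mm10) run from 250 bases before to 50 bases after a gene start, 5′ to 3′ on the gene's strand. These 3 windows were chosen after their values were seen, as examples that carry the motif and overlapped a Prog-like peak and no EpCAM-high peak. In them capitals mark GAGGAA, the core of PU.1 and related ETS sites. They belong to Vsig4, a complement receptor of Kupffer cells (chrX:96293389-96293688, minus strand), Marco, a scavenger receptor (chr1:120504975-120505274, minus strand), and Ptprc, the leukocyte antigen CD45 (chr1:138175256-138175555, minus strand, the more upstream start listed).
Vsig4: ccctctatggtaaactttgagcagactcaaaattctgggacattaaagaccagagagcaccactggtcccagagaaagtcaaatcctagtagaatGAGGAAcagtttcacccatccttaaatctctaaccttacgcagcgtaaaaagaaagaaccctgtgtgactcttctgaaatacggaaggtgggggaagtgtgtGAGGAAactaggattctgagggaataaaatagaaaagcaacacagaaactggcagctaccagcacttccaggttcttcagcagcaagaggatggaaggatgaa
Marco: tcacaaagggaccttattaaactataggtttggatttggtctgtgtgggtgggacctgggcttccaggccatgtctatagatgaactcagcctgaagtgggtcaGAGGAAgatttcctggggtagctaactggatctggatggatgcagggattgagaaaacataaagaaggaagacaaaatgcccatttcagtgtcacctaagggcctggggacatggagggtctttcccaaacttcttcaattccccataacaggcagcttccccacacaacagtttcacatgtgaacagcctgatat
Ptprc: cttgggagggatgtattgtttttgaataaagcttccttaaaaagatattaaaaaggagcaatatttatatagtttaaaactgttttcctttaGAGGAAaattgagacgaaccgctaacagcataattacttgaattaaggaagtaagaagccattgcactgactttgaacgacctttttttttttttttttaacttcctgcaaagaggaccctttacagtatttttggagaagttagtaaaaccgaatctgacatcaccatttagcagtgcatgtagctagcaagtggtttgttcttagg
The Vsig4 window held 2 matches, whereas the Marco and Ptprc windows held 1 each. The marked Vsig4 and Ptprc matches lay inside the Prog-like peak. The marked Marco match lay outside it, since that peak covered the window only up to chr1:120505077 and the match is further upstream of the gene. The Prog-like peak over the Vsig4 window had an authors' fold of 9.55, that over Marco 10.7 and that over Ptprc 11.9. The Ptprc locus also had an EpCAM-high peak near its start, with a fold of 4.80, which ended before this window and overlapped the window of a downstream start.

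A match is a run of letters in the window, can lie outside the peak, and does not show that the factor was bound. This and other motifs were counted in all 21263 windows of 17492 protein-coding genes. Of the 984 windows with a Prog-like peak alone, 41.0% (37.9% to 44.1%) held GAGGAA on either strand. The share was 24.5% (22.5% to 26.6%) in the 1708 windows with an EpCAM-high peak alone, 24.8% in the 9733 windows with both and 27.4% in all windows. The interferon regulatory factor (IRF) motif was in 8.23% of Prog-like windows against 1.82% of EpCAM-high windows and 3.35% of all. The RUNX core TGTGGT was in 21.1%, 12.4% and 15.0%, respectively, and the share in windows with neither list was 19.4%. The SP and KLF box GGGCGG was least frequent in the Prog-like class of the 3 classes with a peak, with 33.9% of Prog-like, 56.4% of EpCAM-high and 71.1% of shared windows. Base composition moved with these shares. The median window held 7 CpG in the Prog-like class, 14 in the EpCAM-high class and 23 in the shared class, and the median GC content was 53.0%, 60.3% and 62.3%.

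Counts were therefore repeated in the 9196 windows with fewer than 10 CpG, a split added after the data were seen. GAGGAA was in 49.0% (44.9% to 53.1%) of 588 Prog-like windows, 30.7% (27.2% to 34.4%) of 645 EpCAM-high windows, 31.0% of 783 shared windows and 31.8% of all. AP-1 (TGANTCA) was in 12.6% and 17.4%, with overlapping intervals, and in 11.15% of all. The EpCAM-high interval (14.5% to 20.5%) lay above that share. HNF1 (GTTAAT) was in 5.78% (4.04% to 7.99%) of Prog-like and 15.2% (12.5% to 18.2%) of EpCAM-high windows, against 10.3% of all. The IRF motif was in 10.5% and 3.26%, against 4.80% of all. Thus GAGGAA stood above its share in all windows in the Prog-like class alone of the 3 classes with a peak when CpG content was held low. Neighbouring windows of 1 gene can overlap, so the windows are not independent.

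**Figure D1:**
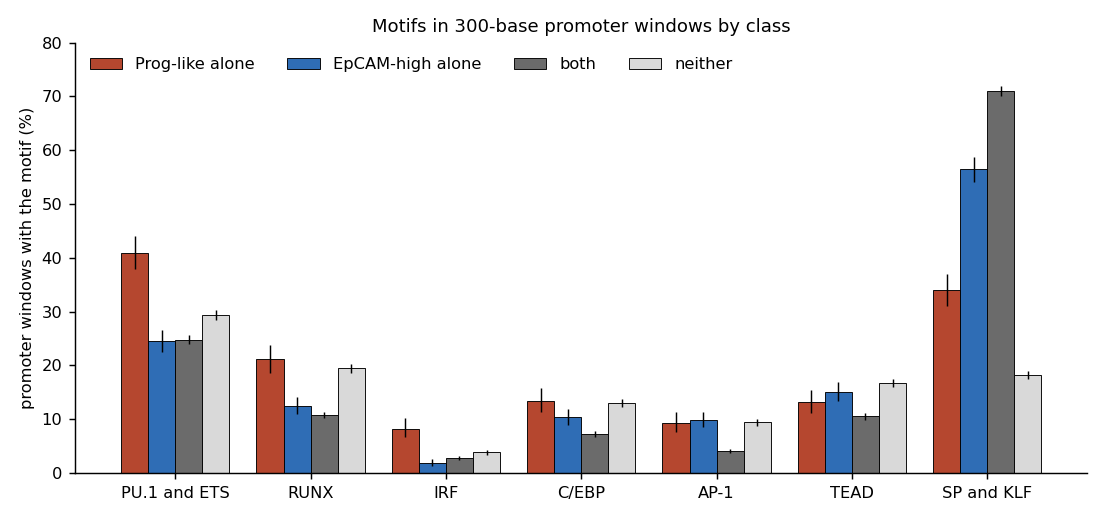
Share of RefSeq promoter windows (%) that held each of 7 motifs on either strand, by the peak lists that overlapped the window: Prog-like alone (984 windows), EpCAM-high alone (1708), both (9733) or neither (8838). Error bars are exact 95% intervals for counting error. The PU.1 and ETS motif was in 41.0% of Prog-like windows and in 24.5% of EpCAM-high windows, and the SP and KLF motif in 33.9% and 56.4%.

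Across the genome the lists shared a minority of their regions. The Prog-like list alone held 47447 regions (44.6%, 44.3% to 44.9%), the EpCAM-high list alone 38612 (36.3%, 36.0% to 36.6%) and both 20267 (19.1%, 18.8% to 19.3%). At equal length these were 40251, 39767 and 19116 of 99134 regions, with 19.3% shared. Shared regions were wider, with a median of 743 bp against 339 bp for Prog-like and 296 bp for EpCAM-high regions. They covered 16.4 Mb, compared with 19.1 Mb and 13.8 Mb. A region joined from peaks of both lists is wider by construction.

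Shared regions lay at gene ends more often than regions of 1 list, most of which lay away from them. A gene end was within 1000 bp of 47.7% (47.0% to 48.4%) of the shared regions, 5.66% (5.46% to 5.88%) of the Prog-like regions and 8.07% (7.80% to 8.34%) of the EpCAM-high regions. Gene bodies held 50.2% of Prog-like and 43.4% of EpCAM-high regions, and 44.1% and 48.6% lay between genes. The EpCAM-high regions were the more remote, since 15.4% of them lay over 100 kb from any protein-coding gene, compared with 11.7% of Prog-like and 3.85% of shared regions. The median distance to a gene end was 22.7 kb for Prog-like, 29.0 kb for EpCAM-high and 1.85 kb for shared regions. The order of these shares was the same at equal length.

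**Figure D2:**
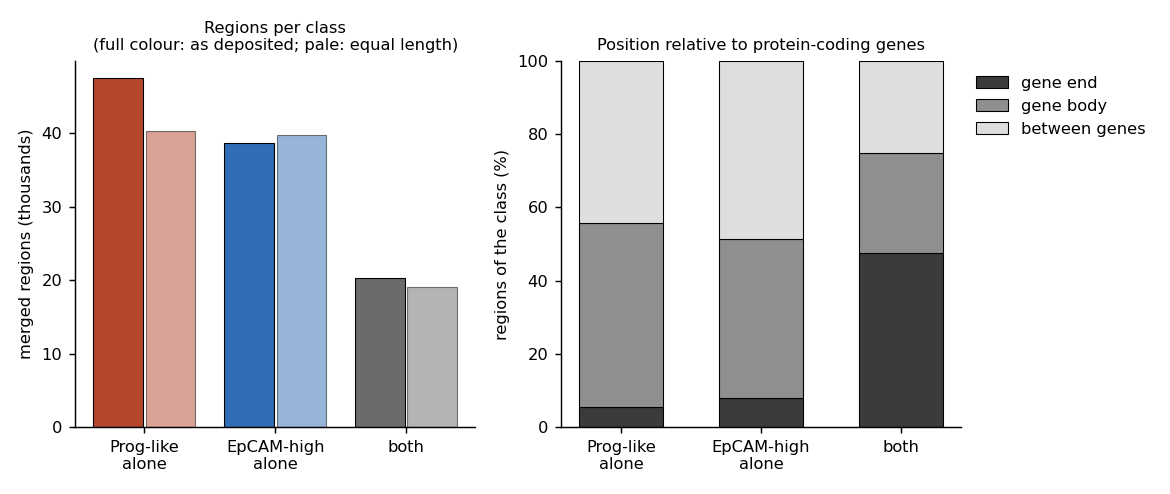
Left, number of merged regions in each class as deposited (full colour) and with both lists at 59454 peaks (pale). Right, share of the regions of each class (%) at a gene end (within 1000 bp), in a gene body or between protein-coding genes. Gene ends took 47.7% of the shared regions but 5.66% and 8.07% of the regions of 1 list.

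The strongest peaks were shared most often. In the highest 10% of the Prog-like list by −log10 p, 66.8% of peaks overlapped an EpCAM-high peak, and in the lowest 10% 13.9% did. In the EpCAM-high list the share fell from 71.2% to 14.8%. Over whole lists 30.1% of Prog-like and 35.1% of EpCAM-high peaks were shared. Across the 20267 shared regions the authors' folds of the lists had a Spearman rho of 0.57, given as a description over regions that share position and width. The 5 shared regions that ranked best by fold in both lists were led by chr8:19784490-19785174, with folds of 47.9 and 52.2. The region at chr1:24612468-24613381 had folds of 43.3 and 49.5. The others were in Myo3a, at a gene end of Lars2 and 10423 bp from Trim43c, and all 5 also overlapped peaks of the other 3 lists. Whether they lie in repeated sequence was not tested.

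**Figure D3:**
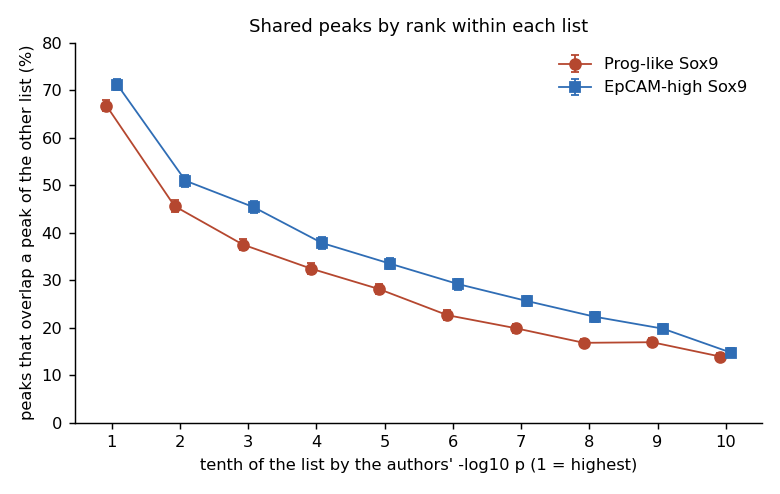
Share of peaks (%) that overlapped a peak of the other list, in 10 equal steps of each list ranked on the authors' −log10 p (1 is the highest). Circles are the Prog-like list and squares the EpCAM-high list, with exact 95% intervals. The share fell from 66.8% to 13.9% in the Prog-like list and from 71.2% to 14.8% in the EpCAM-high list.

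The deposited CK19 lists of the same names split most of these regions the same way. Of the Prog-like regions, 87.0% overlapped a Prog-like CK19 peak and 4.45% an EpCAM-high CK19 peak. Of the EpCAM-high regions, 58.7% overlapped an EpCAM-high CK19 peak and 6.79% a Prog-like CK19 peak. A CK19 peak of the other name alone lay on 0.62% of Prog-like and 1.34% of EpCAM-high regions. The list named Tumor Sox9, the shortest with 39644 peaks, overlapped 27.8% of EpCAM-high, 4.57% of Prog-like and 71.4% of shared regions. No peak of these 3 lists lay on 33.3% of EpCAM-high and 11.9% of Prog-like regions. At equal length these shares were 32.6% and 6.16%.

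Regions of a class followed each other more often than the share of that class among all regions. The next region along the chromosome was of the same class for 59.1% of Prog-like regions, against 44.6% of all regions in that class. For EpCAM-high regions it was 57.3% against 36.3%, and for shared regions 26.7% against 19.1%. A Prog-like region had a median distance of 10.5 kb to the nearest EpCAM-high peak, and an EpCAM-high region 14.1 kb to the nearest Prog-like peak. Autosomes differed in the balance of the lists. There were 1.52 Prog-like regions per EpCAM-high region on chromosome 17 and 1.06 on chromosome 3, and at equal length 1.23 and 0.86.

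Stretches of 100 kb with the most regions of 1 list named further genes. The Prog-like stretches held 21 to 22 regions of that list alone. They contained Dock4 on chromosome 12 and Pdcd1lg2, which encodes the checkpoint ligand PD-L2, on chromosome 19. The others held P2ry12, P2ry13 and Med12l, among others, on chromosome 3, Irf8 on chromosome 8, and the co-stimulatory ligand gene Cd86 with Ildr1 on chromosome 16. The Irf8 stretch (chr8:120697163-120797162) held 21 Prog-like regions, 0 EpCAM-high regions and 1 shared region. IRF8 is a transcription factor of monocytes and macrophages. The EpCAM-high stretches held 18 to 19 regions. They lay around Nr2f2, a nuclear receptor gene, on chromosome 7, at Slc39a11 on chromosome 11 and at Sema6a on chromosome 18, and the remaining pair (chromosomes 15 and 10) held no protein-coding gene.

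The Slc39a11 stretch (chr11:113180085-113280084) had 19 EpCAM-high regions and none of the other classes, and it began 392.3 kb from the right end of Sox9. Sox9 encodes a transcription factor of bile duct and progenitor cells and sits in a wide gene desert. Within 1000 kb of Sox9 on either side there were 107 EpCAM-high, 16 Prog-like and 13 shared regions, and at equal length 109, 14 and 11. The Sox9 locus itself held 3 EpCAM-high and 0 Prog-like peaks. The peak over its left end (chr11:112782039-112783114) had an authors' fold of 5.38, and that at chr11:112787951-112788843 had 8.81. In the same span around Irf8 there were 75 Prog-like, 45 EpCAM-high and 30 shared regions. Around Nr2f2 there were 9, 82 and 2. These genes were set side by side after their loci had been seen.

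Genes were then classed by peaks within 1000 bp of either end. Of 21887 protein-coding genes, 1242 were marked there by the Prog-like list alone (5.67%), 1965 by the EpCAM-high list alone (8.98%) and 10666 by both. At equal length the first 2 counts were 1091 (4.98%) and 2291 (10.5%). Where the strand was known from the promoter table, the peak was at the 5′ end only in 65.9% of 952 Prog-like genes and 82.5% of 1466 EpCAM-high genes. It was at the 3′ end only in 22.9% and 9.96%. Of the 1242 Prog-like genes 74.6% were Prog-like alone in the CK19 lists too, and of the 1965 EpCAM-high genes 56.1% were EpCAM-high alone. Any gene-end peak was present at 54.4% of all genes in the Prog-like list and at 57.7% in the EpCAM-high list, and the gene groups below are read against these shares. They were chosen with earlier results of these data known.

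Kupffer cell genes were accessible in the Prog-like list. All 17 genes of the Kupffer cell list had a Prog-like gene-end peak and 4 had an EpCAM-high one, so 13 were Prog-like alone. Their loci held 112 Prog-like, 8 EpCAM-high and 19 shared regions, and at equal length 97, 8 and 19. Timd4, a phosphatidylserine receptor of resident macrophages, had 14 Prog-like and 0 EpCAM-high locus peaks. The peak nearest its start (chr11:46810286-46810894) had a fold of 8.53. Vsig4 had 11 and 0 locus peaks, of which 1 lay 7.21 kb upstream of its start. The haemoglobin scavenger receptor Cd163 had 8 and 0, and the lectin Clec4f 7 and 0. The Clec4f peak over its start (chr6:83655979-83656512) had a fold of 7.44. Marco had 7 and 0, with a fold of 15.9 at a peak downstream of the gene (chr1:120467282-120467790). The mannose receptor Mrc1 had 20 and 5, and Adgre1 5 and 0. Both lists had gene-end peaks at Id3, Nr1h3, Slc40a1 and Hmox1, whose locus peaks numbered 3 and 4, 6 and 3, 7 and 6, and 8 and 4. Id3 encodes an inhibitor of helix-loop-helix factors, Nr1h3 the sterol receptor LXR-alpha, Slc40a1 the iron exporter ferroportin and Hmox1 haem oxygenase.

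The macrophage surface and phagocyte list showed the same split, with 23 of 25 genes at a Prog-like gene end and 5 of 25 at an EpCAM-high one. More Prog-like than EpCAM-high regions lay in 25 of 25 loci, compared with 36.9% of all protein-coding genes. The scavenger receptor Msr1 had 12 Prog-like and 0 EpCAM-high locus peaks, the fractalkine receptor Cx3cr1 10 and 0, and the protease Ctss 6 and 0. The complement genes C1qa and C1qc are neighbours that share the same 5 Prog-like regions. Csf1r, the receptor for the main growth factor of macrophages, had 8 and 3. Leukocyte signalling genes had a Prog-like gene-end peak at 19 of 20 and an EpCAM-high one at 4 of 20. The phosphatase Inpp5d had 13 and 0 locus peaks, the adaptor Lcp2 10 and 1, and the integrin Itgb2 10 and 1. Ptprc had 14 and 2. Cytip was the exception, with an EpCAM-high gene-end peak alone, although its locus held 17 Prog-like and 7 EpCAM-high peaks.

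Myeloid transcription factors were less separated at their ends than in their loci. All 17 had a Prog-like gene-end peak and 13 an EpCAM-high one. Their loci held 118 Prog-like and 42 EpCAM-high regions, and more Prog-like regions lay in 14 of 17. At equal length it was 10 of 17, with 3 the other way and 4 tied. Spi1 had 7 Prog-like peaks and 1 EpCAM-high peak. The Prog-like peak over its left end (chr2:91082281-91083356) had a fold of 5.05, and the EpCAM-high peak (chr2:91115081-91115474) lay at its right end with 9.24. Irf8 had 10 and 1, and the peak at its start was held by both lists, with folds of 9.59 and 6.03. Tfec had 14 and 1, and Zeb2 22 and 7. Klf4 (2 and 4) and Cebpa (2 and 5) had more EpCAM-high peaks.

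Innate signalling and antigen presentation genes followed. Toll-like receptor pathway genes had a Prog-like gene-end peak at 17 of 17 and an EpCAM-high one at 12 of 17. Those at a Prog-like gene end alone were Tlr1, Tlr8, Tlr9, Tlr13 and Cd180. Tlr4, the lipopolysaccharide receptor, had 6 and 3 locus peaks and a gene-end peak in both lists. Chemokines and cytokines were at 21 and 10 of 26, and MHC class II genes at 7 and 4 of 9. For these 9 genes the shares were 77.8% (40.0% to 97.2%) and 44.4% (13.7% to 78.8%). Both intervals held the shares of all genes, 54.4% and 57.7%. More Prog-like regions lay in 9 of 9 MHC class II loci, compared with 36.9% of all genes. Tnf had 7 Prog-like and 1 EpCAM-high locus peaks, Il10 5 and 0, and the MHC class II activator Ciita 15 and 3. Cxcl1, a neutrophil chemokine, was the reverse at its ends, with an EpCAM-high peak alone and 5 and 4 locus peaks.

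Biliary genes were on the other side. Of 20 biliary and progenitor surface and keratin genes, 19 had an EpCAM-high gene-end peak and 8 a Prog-like one, and none was Prog-like alone. Krt19, keratin 19, had 6 EpCAM-high and 0 Prog-like locus peaks, Krt23 7 and 0, Krt8 6 and 0, Krt7 4 and 0, and Krt18 4 and 0. The Krt7 peak over its start (chr15:101412186-101412600) had a fold of 7.51. Spp1, osteopontin, had 6 and 1, with a fold of 10.8 at a peak 11.3 kb downstream of its start. The adhesion gene Cdh1 had 9 and 2. Prom1, the stem cell antigen CD133, was the reverse in number, with 3 EpCAM-high and 12 Prog-like locus peaks and gene-end peaks in both. Epcam, the gene of the sort marker, had 2 EpCAM-high peaks and 3 Prog-like peaks. Its start lay in a shared region (chr17:87635747-87637342) with a fold of 13.0 in the EpCAM-high and 4.97 in the Prog-like list. A Prog-like peak within the gene (chr17:87646216-87646610) had a fold of 15.2 and no EpCAM-high counterpart. Thy1, the other sort marker, had 0 locus peaks in both, and the nearest peaks were 18216 bp (Prog-like) and 18211 bp (EpCAM-high) away.

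All 17 biliary transcription factors had an EpCAM-high gene-end peak, and 7 a Prog-like one. Their loci held 78 EpCAM-high, 5 Prog-like and 21 shared regions, the same at equal length. More EpCAM-high regions lay in 14 of 17 loci, compared with 24.3% of all genes, and 3 were tied. Tead1, a partner of YAP, had 18 EpCAM-high and 3 Prog-like locus peaks, Tead4 9 and 0, Grhl2 8 and 2, Ehf 6 and 0, and Onecut2 5 and 0. Onecut1 had 7 and 2, and 1 of its 2 Prog-like peaks (chr9:74871127-74871761) had no EpCAM-high counterpart.

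Cholangiocyte transport and cilia genes were at 15 EpCAM-high and 5 Prog-like gene ends of 19. Cftr, the chloride channel of bile duct and other secretory epithelia, had 15 EpCAM-high and 0 Prog-like locus peaks. Its peak at chr6:18270991-18271485, 100.6 kb from the start and inside the gene, had a fold of 26.2, among the 5 highest of all EpCAM-high regions. The peak over its start had 11.1. Bicc1 had 12 and 1, the chloride channel Ano1 10 and 1, the bile acid transporter Slc10a2 5 and 0, and the water channel Aqp1 5 and 0. Pkhd1, the fibrocystin of bile duct cilia, had 8 EpCAM-high and 7 Prog-like locus peaks. Its EpCAM-high peak over the start (chr1:20617639-20618474, fold 7.30) had no Prog-like counterpart. Junction and polarity genes were at 20 and 8 of 22, with Dsp, desmoplakin, at 7 EpCAM-high and 1 Prog-like locus peaks and Cldn4 at 4 and 0. Tjp3 was the exception, with a Prog-like gene-end peak alone.

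**Figure D4:**
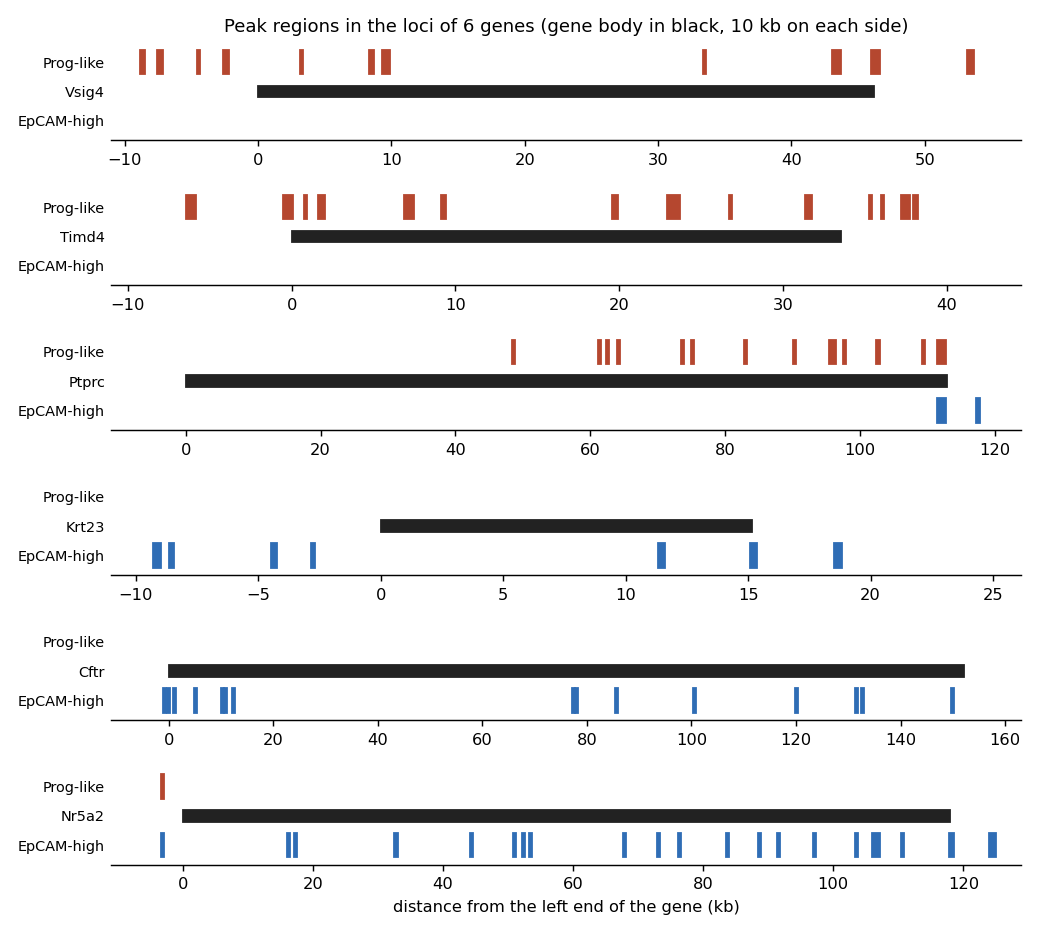
Regions with a Prog-like peak (red, above) and with an EpCAM-high peak (blue, below) around 6 genes, by distance from the left end of the gene (kb). The black bar is the gene body, and narrow regions are drawn wider than they are so that they can be seen. Vsig4 and Timd4 held 11 and 14 Prog-like peaks and no EpCAM-high peak. Krt23 and Cftr held 7 and 15 EpCAM-high peaks and no Prog-like peak.

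Foregut and hepatocyte factors were also open in the EpCAM-high list. Foregut endoderm transcription factors were at 13 EpCAM-high and 4 Prog-like gene ends of 15. Nr5a2, a nuclear receptor of liver and pancreas, had 20 EpCAM-high locus peaks and 1 Prog-like peak, Hnf4g 9 and 0, the pancreas and duodenum factor Pdx1 6 and 0, and the intestinal factor Cdx2 4 and 0. Neurog3 was the reverse, with 1 Prog-like peak and none in the EpCAM-high list. Hepatocyte transcription factors were at 16 and 8 of 18, with no gene Prog-like alone. Hnf4a had an EpCAM-high peak over its upstream start with a fold of 10.3, and 5 locus peaks in each list.

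Hepatocyte products were at more EpCAM-high than Prog-like gene ends. Secreted proteins were at 13 EpCAM-high and 7 Prog-like gene ends of 23, and metabolic genes at 12 and 5 of 24. In the EpCAM-high list these shares, 56.5% (34.5% to 76.8%) and 50% (29.1% to 70.9%), were near the 57.7% of all genes. In the Prog-like list they were 30.4% (13.2% to 52.9%) and 20.8% (7.13% to 42.2%), against 54.4%. The Tumor list had gene-end peaks at 21 of these 23 and 19 of these 24. Alb, serum albumin, had 3 EpCAM-high and 0 Prog-like locus peaks, with a fold of 9.36 over its start (chr5:90460692-90460925). Fga and Ahsg, which encode fibrinogen alpha and fetuin, had 2 and 3 EpCAM-high peaks, none Prog-like, and none in the CK19 lists. F9, Serpinc1 and Otc were Prog-like at their ends alone, with 6, 1 and 4 Prog-like locus peaks and no EpCAM-high peak. Afp, the fetal albumin, had 2 Prog-like peaks and 1 EpCAM-high peak, and its gene-end peak in the Prog-like list was lost at equal length. Cyp2e1, Cyp1a2, Cyp3a11 and Hpd had no locus peak in either list.

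**Figure D5:**
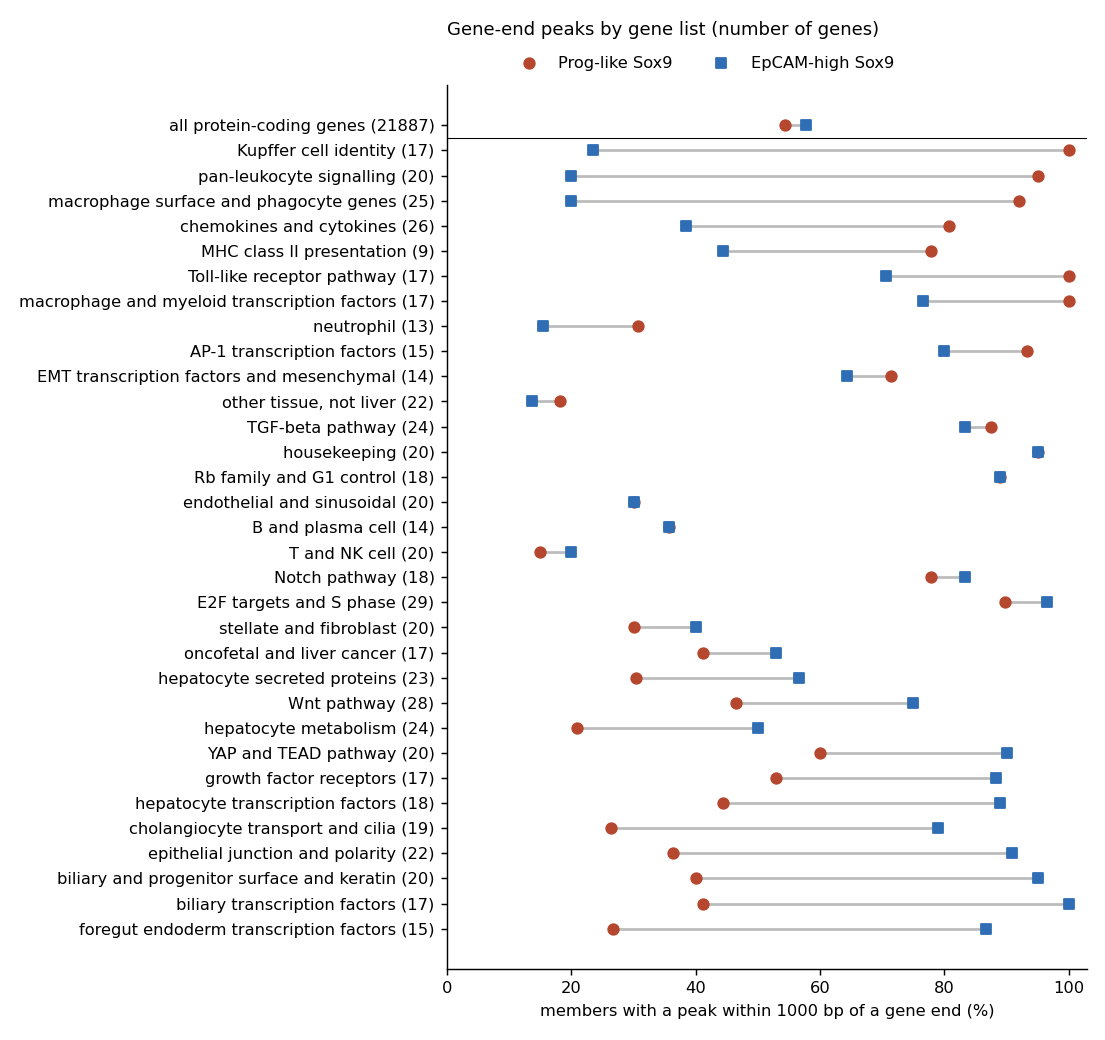
Share of the genes of each list (%) with a peak within 1000 bp of a gene end in the Prog-like (circles) and EpCAM-high (squares) lists, ordered by the difference, with the number of genes in brackets. The top row gives all 21887 protein-coding genes, 54.4% and 57.7%. Kupffer cell genes lay at 100% and 23.5%, biliary transcription factors at 41.2% and 100%, and housekeeping genes at 19 of 20 in both.

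Of the signalling lists, 3 had more EpCAM-high than Prog-like gene ends by 6 or more genes. Growth factor receptors were at 15 EpCAM-high and 9 Prog-like gene ends of 17, YAP and TEAD pathway genes at 18 and 12 of 20, and Wnt pathway genes at 21 and 13 of 28. In the Prog-like list these shares, 52.9%, 60% and 46.4%, were near the 54.4% of all genes. In the EpCAM-high list they were 88.2% (63.6% to 98.5%), 90% (68.3% to 98.8%) and 75% (55.1% to 89.3%), against 57.7%. The Wnt interval held that share of all genes. None of these 3 lists had a gene that was Prog-like alone. Fgfr2 had 6 EpCAM-high and 0 Prog-like locus peaks, Erbb2 4 and 1, and Ankrd1, a YAP target, 2 and 0. The ligand Wnt7b had 7 and 0, and the stem cell receptor Lgr5 5 and 0. Notch pathway genes were at 15 and 14 of 18, TGF-beta pathway genes at 20 and 21 of 24 (20 and 19 at equal length, so the order flipped), and AP-1 factors at 12 and 14 of 15. The ligand Jag2 was at an EpCAM-high gene end alone and Dll4 at a Prog-like one alone. Tgfbr3 had 8 EpCAM-high and 0 Prog-like locus peaks.

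Genes of the cell cycle had gene-end peaks in both lists. E2F targets and S phase genes were at 28 EpCAM-high and 26 Prog-like gene ends of 29, and E2f2 and Prim1 were EpCAM-high alone. Rb family and G1 control genes were at 16 of 18 in each. Their loci were less even, with 75 Prog-like and 17 EpCAM-high regions. More Prog-like regions lay in 15 of 18 loci (14 at equal length), compared with 36.9% of all genes. The E2F and S phase loci held 31 and 15, with more Prog-like regions in 13 of 29. Among the Rb family genes of the knockout model, Rb1 had 16 Prog-like and 6 EpCAM-high locus peaks, Rbl2 8 and 2, and Rbl1 5 and 0. Rb1 and Rbl2 had gene-end peaks in both lists, and Rbl1 had none in either, whereas in the CK19 lists it had one in both. Which exons are floxed or deleted is not given in the sources used here, so these peaks are no check of the knockout. Housekeeping genes were at 19 of 20 in each list.

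Lists of other cell types had few gene-end peaks in either list. T and NK cell genes were at 3 Prog-like and 4 EpCAM-high gene ends of 20, B and plasma cell genes at 5 and 5 of 14, and neutrophil genes at 4 and 2 of 13. Cd3d and the T cell factor Tcf7 each had 1 locus peak, Prog-like and EpCAM-high respectively. The neutrophil gene Csf3r had 8 Prog-like peaks and 1 EpCAM-high peak. Endothelial genes were at 6 and 6 of 20, and stellate and fibroblast genes at 6 and 8 of 20. Neutrophil loci held 33 Prog-like and 11 EpCAM-high regions, and endothelial loci 57 and 33. T and NK cell loci held 16 and 12, B and plasma cell loci 19 and 19, and stellate and fibroblast loci 22 and 32. More Prog-like regions lay in 8 of 13 neutrophil loci (6 at equal length) and 9 of 20 endothelial loci, compared with 36.9% of all genes. Cdh5 and Kdr were Prog-like alone with 7 and 2, and 5 and 0, locus peaks. Sox17 and Flt4 were EpCAM-high alone with 4 and 5 peaks and none Prog-like. The pericyte gene Rgs5 had 7 EpCAM-high peaks and 1 Prog-like peak, Col1a1 5 and 0, and Pecam1 2 and 5.

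MicroRNA loci were split for blood cell microRNAs and mixed for epithelial ones. Regions within 10 kb of the hairpin were counted for 20 microRNAs, and the background was all 1005 hairpins, of which 27.5% had more Prog-like and 22.8% more EpCAM-high regions. Mir223, a regulator of myeloid cells (chrX:96242817-96242926), had 5 Prog-like regions and 0 EpCAM-high regions, and it lies beside Vsig4, with which it shares some of them. Mir142, found in all blood lineages, and Mir146, induced by Toll-like receptor signalling, had 3 and 0 each. Mir155 had 1 and 2, and Mir144 with its neighbour Mir451a, both of red cells, 1 and 0. The epithelial cluster of Mir200a and Mir200b (chr4:156054896-156055750) had 5 EpCAM-high regions and 1 Prog-like region, and Mir429 beside it 4 and 1. Mir205 had 3 and 0, and Mir31 and Mir375 2 and 0 each. The other cluster of the family, Mir200c with Mir141, had 2 of each and 1 shared region. The epithelial microRNAs Mir192 and Mir194-2, which are neighbours, had 2 Prog-like regions and 1 EpCAM-high region, and Mir194-1 and Mir215, also neighbours, had 1 and 0. In all, 7 of 8 blood cell microRNAs had more Prog-like regions and 1 had more EpCAM-high regions. Of 12 epithelial microRNAs, 6 had more EpCAM-high regions, 4 more Prog-like regions and 2 the same number. At equal length the epithelial counts were 6, 2 and 4, and 6 of 8 blood cell microRNAs had more Prog-like regions. Neighbouring hairpins share regions but were counted singly, so these are not counts of separate loci. Mir511, a blood cell microRNA with 3 Prog-like regions and 1 EpCAM-high region, lies inside Mrc1. Mature sequences from RefSeq are shown for those with the clearest split, 5′ to 3′, with the seed (bases 2 to 8) in capitals.
mmu-miR-223-3p: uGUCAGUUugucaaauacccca
mmu-miR-142a-3p: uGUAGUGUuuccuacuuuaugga
mmu-miR-146a-5p: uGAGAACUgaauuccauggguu
mmu-miR-200b-3p: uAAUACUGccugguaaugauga
mmu-miR-429-3p: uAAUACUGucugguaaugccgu
mmu-miR-200a-3p: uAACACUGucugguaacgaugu
mmu-miR-205-5p: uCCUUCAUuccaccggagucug
MiR-200b and miR-429 share a seed, which is also that of miR-200c, and miR-200a shares its seed with miR-141. The 3 Prog-like microRNAs have 3 different seeds.

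Genes were also picked over the whole genome by their regions, from loci of at most 60 kb. These hold the most regions of 1 list alone and no region of the other list alone at equal length. The 12 Prog-like genes included Cd200r1, Timd4, Fpr2, Plek, Kcna2, Il21r, Cmklr1, Il10ra, Fpr1, Capza2 and P2ry10b. Cd200r1, an inhibitory receptor of myeloid cells, had 13 Prog-like and 0 EpCAM-high locus peaks. The formyl peptide receptor genes Fpr2 and Fpr1, which are neighbours, had 13 and 11, the interleukin 10 receptor Il10ra 12 and the chemerin receptor Cmklr1 11, all with 0 EpCAM-high peaks. Capza2 had gene-end peaks in both lists. The 12 EpCAM-high genes were Steap2, Adamts15, Degs2, Bcar1, Defb1, Cxxc5, Fads2, F11, Slc5a9, Nr2f2, Pwwp2b and Tspan8. Steap2, a metalloreductase, had 9 EpCAM-high and 0 Prog-like locus peaks, the epithelial defensin Defb1 8 and 0, and the coagulation factor F11 8 and 0. Tspan8, a tetraspanin of bile duct and gut epithelium, had 8 and 1. Of these 24 genes, Kcna2, Defb1 and F11 had no gene-end peak in either list.

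None of the 10 regions of 1 list with the highest folds lay at a gene end. Among Prog-like regions these were in Cd55b (chr1:130417218-130417610, fold 29.2) and Agtr1b (chr3:20348255-20348616, fold 29.1), near Gpr174 and Nek7, and in Gpc6 (fold 27.1). All 5 overlapped a Prog-like CK19 peak and no EpCAM-high CK19 or Tumor peak. Among EpCAM-high regions the highest was 1428 bp from Shld2 (chr14:34235038-34235519, fold 28.0). The next were near Efemp1 and Flrt2, in Cftr and in Pdlim5 (fold 25.5). All 5 overlapped an EpCAM-high CK19 peak, and the region in Pdlim5 also overlapped a Prog-like CK19 peak.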

How the data were processed

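The 5 deposited peak lists were used as the authors made them. Per the submitters' processing notes, mm10 was the build, and deepTools, HOMER, MACS2 and Bowtie 1.1.2 were used. The settings and any pooling of samples before peak calling were not given in the sources used here. Each deposited peak carries the authors' fold enrichment, a ratio over background on a linear scale, and the authors' −log10 p and −log10 q. These values served for ranks and filters inside a list. Folds of both lists were also given side by side for single regions and ranked across the shared regions. With read depth unknown, they are not levels that can be compared between the lists.

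Peaks of the Prog-like and EpCAM-high Sox9 lists sharing at least 1 bp were merged with Python 3.11.15, pandas 2.3.3 and numpy 2.4.6, and classed by list. Exact Clopper-Pearson 95% intervals came from scipy 1.17.1. A gene end is within 1000 bp of either end of 1 of 21887 protein-coding genes (RefSeq, GRCm38.p6), and a locus is the gene body with 10 kb on each side. Of 622 gene entries in 32 gene lists, 618 matched by symbol. Some genes stand in more than 1 list. Motifs were counted as exact letters on both strands. The merging, gene-end and motif steps were tested on simulated data and returned the planted answers.

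The members and lists were chosen with earlier results of these data known. Genes were named by rule: up to 6 members per gene list and direction with a gene-end peak in 1 list alone, at full and at equal length; 12 genes and 5 regions per direction genome-wide; 5 stretches of 100 kb per direction; and a set of sort, lineage and Rb family genes whatever their values. The exceptions and other genes named beside them were chosen after their values were seen. Alternatives were list length, a stricter −log10 q of 5, overlap, chromosomes, peak width, gap, gene-end window and locus size. With 1 list per condition no test was run. Some genes that these rules name are not reported here.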

Additional observations from a re-analysis of the deposited data

Results flagged for a closer look

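In 2 gene lists the balance of gene-end peaks pointed one way in the Sox9 lists and the other way in the CK19 lists. Of 17 oncofetal and liver cancer genes, 7 had a Prog-like and 9 an EpCAM-high gene-end peak in the Sox9 lists, a difference of -2. In the CK19 lists 10 and 9 did, a difference of 1. Of 22 genes of other tissues, 4 and 3 had one in the Sox9 lists, a difference of 1, and 3 and 5 in the CK19 lists, a difference of -2. The difference between the pairs of lists was not tested.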

How the results depend on the processing

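The share of regions held by both lists, 19.1% as deposited, was 20.9% with both lists at 39644 peaks (the length of the shortest deposited list), 19.6% with −log10 q of 5 or more, 18.6% where an overlap had to cover 50% of either peak, 16.2% with 200 bp around each summit and 20.4% where a region of 1 list needed a gap of 1000 bp. At 39644 peaks the Prog-like list alone held 25930 regions. The share at a gene end in Prog-like regions (5.66%) was 6.31% at 39644 peaks, 6.25% at the stricter q, 6.89% around summits, 4.74% with the gap and 11.4% with a window of 2500 bp. In EpCAM-high regions (8.07%) it was 8.76% at equal length, then 10.7%, 8.57%, 9.93%, 7.45% and 12.9% in the same order. In shared regions (47.7%) it was 48.6% at equal length, 57.3% at 39644 peaks, 50.2% at the stricter q, 48.5% with 50% overlap and 53.4% with 2500 bp. The cause of these shifts was not tested. The order of the 3 classes in this share held in each of these settings.

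Counts of gene-end peaks, Prog-like minus EpCAM-high, changed sign in 3 of 32 gene lists. TGF-beta pathway genes went from 1 to -1 at equal length. EMT genes went from 1 to -2 at equal length, -3 at 39644 peaks, -1 at the stricter q and -2 with 2500 bp. Genes of other tissues went from 1 to -2 with 2500 bp. Counts of locus regions changed sign in 5 lists. T and NK cell genes went from 4 to -1 at equal length and stellate genes from -10 to 3 at the stricter q. Oncofetal genes went from 6 to -6 at equal length and to -6 at 39644 peaks, AP-1 genes from 14 to -6 at 39644 peaks, and EMT genes from 11 to -3 at equal length and -6 at 39644 peaks. The cause was not tested. No macrophage, leukocyte signalling, biliary or foregut list changed sign in these settings. The B and plasma cell loci, tied at 19 regions each, had 15 Prog-like and 20 EpCAM-high regions at equal length. A move away from a tie was not counted as a change of sign.

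No paired analysis was possible because the result comes from 1 peak list per condition and no test. There was no replicate to leave out. Read depth is unknown, so a missing peak does not show closed chromatin, and depth was not matched between the lists. Neighbouring genes share regions, and a region in a locus is not shown to act on that gene.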

Other observations

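Peaks on the sex chromosomes differed between the deposited lists. Chromosome Y held 22 peaks in the Prog-like Sox9 list, 10 in the EpCAM-high Sox9 list and 17 in the Tumor Sox9 list, compared with 0 in the Prog-like CK19 list and 1 in the EpCAM-high CK19 list. The Y-linked gene Ddx3y had 5 Prog-like and 2 EpCAM-high locus peaks in the Sox9 lists. The locus of Xist, the RNA of the inactive X chromosome, held 1 Prog-like and 0 EpCAM-high peaks in the Sox9 lists, and 4 and 3 in the CK19 lists. The sex of the animals is not given in the sources used here.

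Tg, the thyroglobulin gene, was the member of the other-tissue list with 31 Prog-like and 6 EpCAM-high locus peaks. Its gene-end peak was Prog-like alone in the Sox9 lists and EpCAM-high alone in the CK19 lists.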
